A study of Mus musculus with 8 samples.

Results

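This is an account of 9 genes of iron uptake, storage and export in CD11b+ brain cells of control mice and of mice that overexpress CSF1 (CSF1 OE). The genes were taken as a fixed list of symbols and not by a rule on their values, though earlier results of these data were known. They are the ferritin chains *Fth1* and *Ftl1*, the transferrin receptor *Tfrc*, the iron exporter *Slc40a1* (ferroportin), the metal transporters *Slc11a1* (NRAMP1) and *Slc11a2* (DMT1), the haem oxygenase *Hmox1*, the ferroxidase *Cp* (ceruloplasmin) and the RNA-binding iron sensor *Ireb2* (IRP2). All 9 were among the 20308 gene symbols measured, and all 9 passed the filter on low counts, which left 13407 genes to test.

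RNA was sequenced from 4 control and 4 CSF1 OE mice, 1 library per mouse and nothing pooled. All were F1 mice of a cross between C57Bl/6 and CD1, aged 14 or 15 days, and the labels do not say which mouse had which age. In CSF1 OE mice a tetracycline-controlled (TRE/tTA) transgene makes the secreted form of CSF1, a growth factor of microglia, in part of the GFAP+ cells of the brain. The cells of the right hemisphere were pulled down with magnetic beads against CD11b, a surface protein of microglia and other myeloid cells, after myelin had been removed. Which alleles the control mice carried is not given in the sources used here, and mice are named here by their animal numbers.

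Cells take up iron mostly as transferrin bound to its receptor, carry it out of endosomes through DMT1, store it inside the ferritin shell and release it through ferroportin with the help of a ferroxidase. Haem oxygenase frees iron from haem, and macrophages, which clear old cells, handle much of the body's haem iron in this way. The iron regulatory proteins IRP1 and IRP2 bind a short RNA hairpin, the iron-responsive element, when iron is scarce. In a 5′ UTR the bound hairpin blocks translation, and in the 3′ UTR of the transferrin receptor it protects the transcript from decay. A transcript count therefore does not show how much ferritin or ferroportin protein a cell makes. In the brain, microglia hold ferritin, and endothelial cells of the vessels carry transferrin receptor.

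The hairpins of these genes are printed because they are the sequences that the iron regulatory proteins bind. They were searched in the coding transcripts of GENCODE M21 (mouse build GRCm38), on the transcript's own strand only, as a C, 5 bases, CAGTG, any base but G, and 5 bases that pair with the first 5, with G-U pairs allowed. Capitals mark the 6 bases of the loop, and 6 more bases stand on either side of the element. Elements were found in 4 of the 9 genes.
*Fth1*, 5′ UTR, chr19:9982732-9982760, plus strand: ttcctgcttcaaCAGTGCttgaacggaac
*Ftl1*, 5′ UTR, chr7:45459779-45459807, minus strand: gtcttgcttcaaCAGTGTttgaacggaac
*Slc40a1*, 5′ UTR, chr1:45925465-45925493, minus strand: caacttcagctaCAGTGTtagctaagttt
*Tfrc*, 3′ UTR, chr16:32631219-32631247, plus strand: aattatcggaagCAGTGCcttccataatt
*Tfrc*, 3′ UTR, chr16:32631598-32631626, plus strand: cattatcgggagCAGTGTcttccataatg
*Tfrc*, 3′ UTR, chr16:32631663-32631691, plus strand: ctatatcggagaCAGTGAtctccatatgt
*Tfrc*, 3′ UTR, chr16:32631710-32631738, plus strand: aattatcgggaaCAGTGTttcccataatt

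By this strict pattern both ferritin chains and ferroportin held 1 match each in the 5′ UTR, and *Tfrc* held 4 in its 3′ UTR. Elements that depart from the pattern were not counted, so a gene may hold more elements than it has matches. The matches stood in 4 of 5 coding transcripts of *Fth1*, 1 of 2 of *Ftl1* and 1 of 4 of *Slc40a1*. Each match of *Tfrc* stood in 1 of its 3 coding transcripts. Of 21901 genes with coding transcripts, 0.105% held a match in a 5′ UTR, 0.457% in a 3′ UTR and 0.461% in the coding sequence. An isoform of *Slc11a2* is also known for an iron-responsive element in its 3′ UTR, which this strict pattern does not find. For *Slc11a1*, *Slc11a2*, *Hmox1*, *Cp* and *Ireb2* the search found no match, which says only that these letters do not stand in their annotated transcripts. A match is a description of the sequence and was not tested as a site of binding.

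Iron handling genes spanned a wide range of levels in these cells (the plot of levels per kilobase). Levels between genes are given as CPM (counts scaled to the same library total) per kilobase of the principal transcript, over all 8 mice. *Ftl1* had a mean of 3167 CPM per kilobase and *Fth1* 950.1. *Hmox1* followed at 286, *Slc40a1* at 84.3, *Slc11a1* at 55.0 and *Tfrc* at 43.9. The lowest were *Ireb2* at 22.04, *Slc11a2* at 19.0 and *Cp* at 11.7. The ranges over the mice did not overlap between *Ftl1* and *Fth1*, between *Fth1* and *Hmox1* or between *Tfrc* and *Ireb2*. All other neighbours in this order overlapped in range, although within a mouse *Hmox1* lay above *Slc40a1* in 8 of 8 mice.

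**Figure D1:**
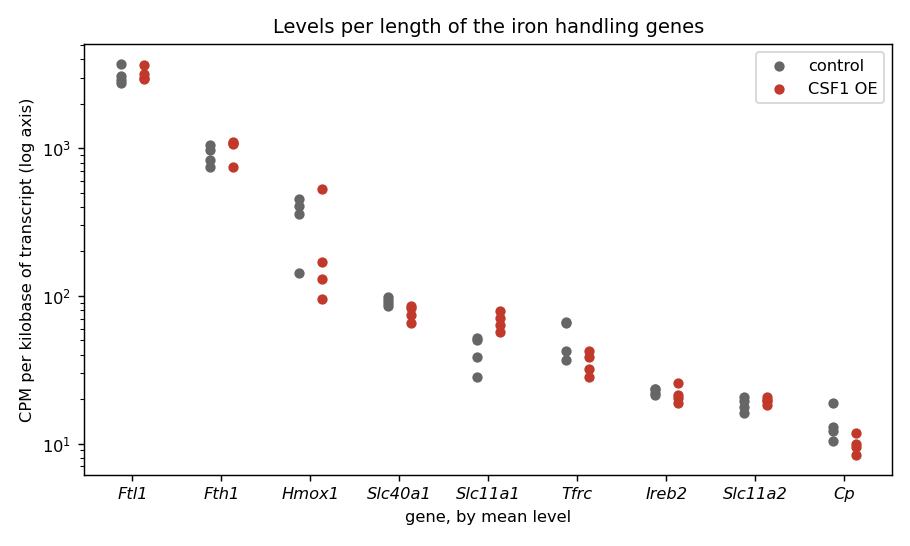
Level of each iron handling gene in CPM per kilobase of principal transcript on a log axis, ordered by mean, with 1 point per mouse (grey, control, and red, CSF1 OE). The light ferritin chain stands between 2767 and 3749 in every mouse, *Cp* between 8.33 and 18.9, and *Hmox1* has the widest spread, from 94.8 to 531.

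None of the 9 genes was called different between the genotypes by edgeR's quasi-likelihood test. A gene was called where its Benjamini-Hochberg adjusted p over all genes tested was under 0.05 and its fold was under 0.7 or over 1.43. Of the 13407 genes, 59 were called (0.44%), 52 of them higher (0.388%) and 7 lower (0.0522%) in CSF1 OE mice, and without the fold rule 0.507% passed. Before adjustment, 4 of the 9 genes had a p under 0.05, *Slc11a1* higher and *Tfrc*, *Slc40a1* and *Cp* lower, while 16.5% of all genes tested had such a p (10.1% higher and 6.44% lower). DESeq2 called 1 of the 9, *Slc11a1*, and 416 of all 13407 genes. On simulated data, where 198 of 13331 genes changed 2-fold, 20.2% of its calls were false. That share depends on how many genes change, so it does not give the share of false calls here. Limma called 0 of the 9 and 105 of all genes. The genotypes did not overlap for 1 of the 9 genes, *Slc11a1*, against 10.3% of all genes tested (6.84% higher and 3.45% lower). The median log2 fold change of the 9 genes was -0.07, beside -0.03 for all genes tested. In a pool of cells, fewer cells of a type and less RNA per cell cannot be told apart.

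**Figure D2:**
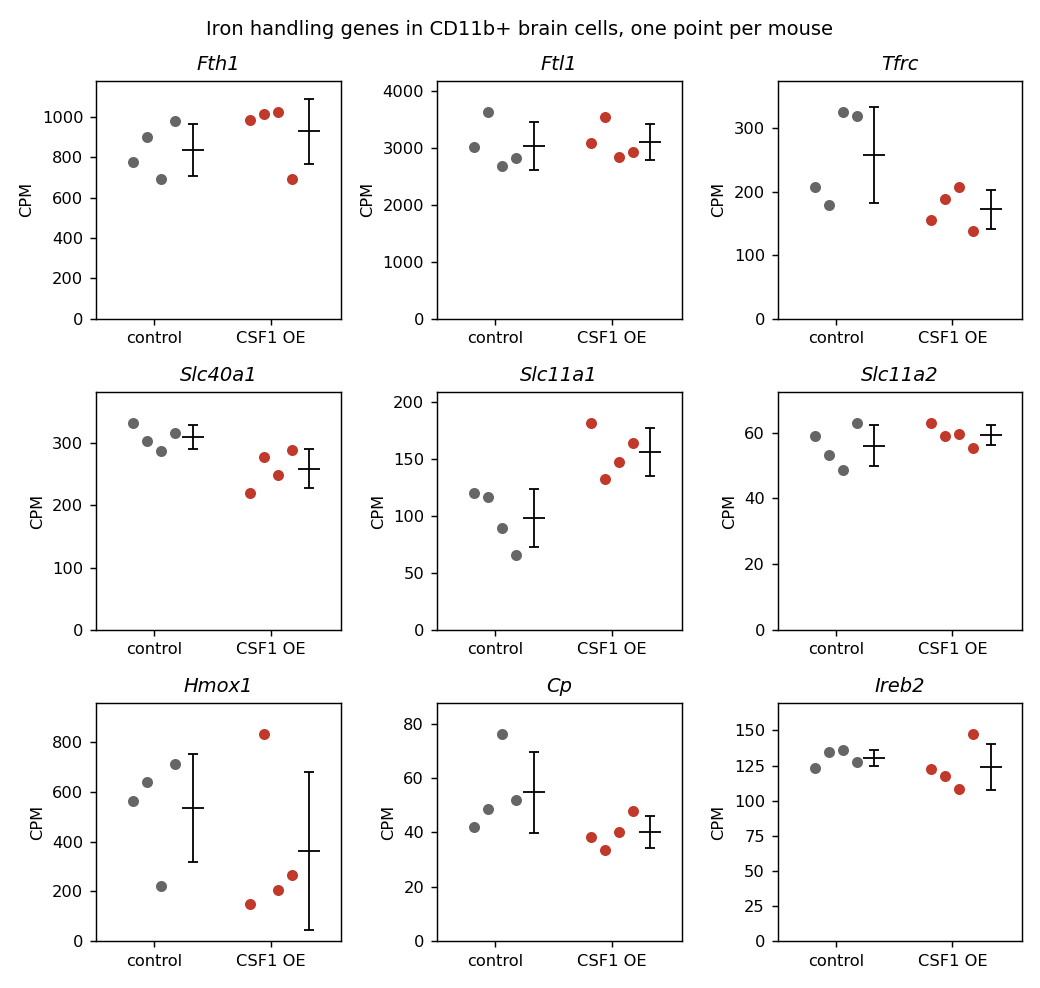
CPM of the 9 iron handling genes, 1 panel per gene, each axis starting at 0, with 1 point per mouse (grey, control, and red, CSF1 OE) and a bar for the mean and SD of the 4 mice. The genotypes are fully apart in the panel of *Slc11a1* (65.7 to 120.1 against 132 to 182), and the CSF1 OE mice of *Hmox1* hold 1 high point at 833.

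The storage genes were the most abundant of the set, and neither differed between the genotypes beyond the spread between mice. *Fth1* (chr19:9980598-9985098, plus strand) encodes the ferritin heavy chain, which oxidises iron as it enters the shell. Its level was 777, 899.8, 691 and 979 CPM in control mice 1827, 1872, 1874 and 1934, and 987, 1013, 1024 and 690.0 CPM in CSF1 OE mice 1931, 1932, 1936 and 2019. In CSF1 OE mice 3 of 4 stood above every control mouse and the other stood below them all. The means were 837 ± 128 and 929 ± 159.8 CPM (SD, n = 4), a log2 fold change of 0.15 (SE 0.16, edgeR adjusted p = 0.676). With a mouse left out the log2 fold change ran from 0.07 (without control 1874) to 0.27 (without CSF1 OE 2019, edgeR adjusted p = 0.370).

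*Ftl1* (chr7:45457944-45459884, minus strand) encodes the light chain, which favours the mineral core. Control mice had 3006, 3629, 2679 and 2820.4 CPM, and CSF1 OE mice 3085, 3544, 2841 and 2918 CPM, in the same order of mice. The ranges of the genotypes lay one inside the other. The means were 3034 ± 419 and 3097 ± 315 CPM (SD, n = 4), with a log2 fold change of 0.03 (SE 0.14, edgeR adjusted p = 0.931). By count, *Ftl1* ranked between 18 and 24 among all genes of a library.

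Summed ferritin, a measure that sets aside the division of reads between the chains, was 3784, 4529, 3369 and 3799.7 CPM in control mice and 4072, 4557, 3866 and 3608 CPM in CSF1 OE mice. The mean log2 difference was 0.06, with p = 0.600 in a two-sided exact permutation test that cannot go below 0.0286. The ferritin genes took between 0.338% and 0.455% of all counts of a library. The ratio of *Fth1* to *Ftl1* counts within a library was 0.278 ± 0.0465 in control and 0.301 ± 0.0526 in CSF1 OE mice (SD, n = 4), with a log2 difference of 0.11 and an exact permutation p = 0.543. The lowest ratio was 0.236 in CSF1 OE mouse 2019 and the highest 0.361 in CSF1 OE mouse 1936. Ferritin has processed copies in the genome, and GENCODE M21 names 2 of *Fth1* and 3 of *Ftl1*. The table has no entries for these copies. How reads that match them were assigned is not known, and the count of each chain is uncertain to that extent.

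The uptake genes *Slc11a1* and *Tfrc* had the largest differences by fold of the 9, in opposite directions. *Slc11a1* (chr1:74375195-74386062, plus strand) encodes NRAMP1, which moves iron and other divalent metals out of the phagosomes of macrophages. Control mice had 120.1, 117, 89.9 and 65.7 CPM. CSF1 OE mice had 182, 132, 148 and 164 CPM, all above the highest control mouse. The means were 98.1 ± 25.5 and 156 ± 21.3 CPM (SD, n = 4), a difference of 59.5%. The log2 fold change was 0.67 (SE 0.19, edgeR adjusted p = 0.142), which did not pass the test. DESeq2, which called 416 genes in all, put the log2 fold change at 0.67 with an adjusted p of 0.0204. Summed CPM of 10 microglia markers, led by *Csf1r*, was 35675, 35834, 31387 and 20278 in control and 30289, 26695, 26710.5 and 38643 in CSF1 OE mice. Control mouse 1934 was the lowest of all 8 in this sum and in *Slc11a1*. With a mouse left out the log2 fold change of *Slc11a1* ran from 0.54 (without control 1934) to 0.79. The part of microglial RNA in the level of *Slc11a1* was not tested.

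*Slc11a2* (chr15:100387898-100425072, minus strand), whose product takes iron out of endosomes in most cells, had 59.1, 53.3, 48.7 and 62.9 CPM in control mice and 62.8, 59.1, 59.6 and 55.3 CPM in CSF1 OE mice. These ranges overlapped, with a log2 fold change of 0.08 (SE 0.09, edgeR adjusted p = 0.695). Counts of *Slc11a1* were 1.05 to 2.19 times those of *Slc11a2* within control libraries and 2.24 to 2.97 times within CSF1 OE libraries. That ratio within a library does not depend on the scaling between libraries, and no test was made of it because it was chosen after the values were seen.

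*Tfrc* (chr16:32608920-32632794, plus strand) encodes transferrin receptor 1. Its level was 207, 179, 325 and 319 CPM in control mice and 156, 188, 207 and 138 CPM in CSF1 OE mice. All 4 CSF1 OE mice lay below the control median, and 2 of them below every control mouse. The means were 258 ± 75.4 and 172 ± 31.0 CPM (SD, n = 4). The log2 fold change was -0.58 (SE 0.22, edgeR adjusted p = 0.233), which did not pass the test.

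*Tfrc* moved across mice with the markers of several other cell types, among them endothelial cells, which carry transferrin receptor in brain vessels (the plot of *Tfrc* against endothelial markers). The summed CPM of 10 such markers, led by *Bsg*, was 1558, 1491, 2111 and 2289.8 in control mice and 1193, 1374, 1706 and 780.5 in CSF1 OE mice. All 10 markers had a lower mean in CSF1 OE mice, 4 of them with an unadjusted p under 0.05 and 0 of them called. Among all genes tested 6.44% were lower with such a p. *Cldn5*, a tight junction gene of endothelium, had 132 to 217 CPM in control and 50.0 to 156 CPM in CSF1 OE mice. As a share of this sum, *Tfrc* was 13.3%, 12.02%, 15.4% and 13.9% in control mice and 13.1%, 13.7%, 12.1% and 17.7% in CSF1 OE mice. These shares overlapped between the genotypes. CSF1 OE mouse 2019 had the lowest sums of endothelial, mural cell, astrocyte, oligodendrocyte precursor, neuron, choroid plexus and red cell markers. It also had the lowest monocyte sum, 283 CPM, but *Fn1* alone gave 213 CPM of it. The 6 monocyte markers went both ways between the genotypes, 2 higher and 4 lower in CSF1 OE mice. The sum of microglia markers was highest in mouse 2019, at 38643 CPM. Without this mouse the log2 fold change of *Tfrc* was -0.49 (SE 0.23, edgeR adjusted p = 0.319). The part of endothelial or other RNA in the level of *Tfrc* was not tested.

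**Figure D3:**
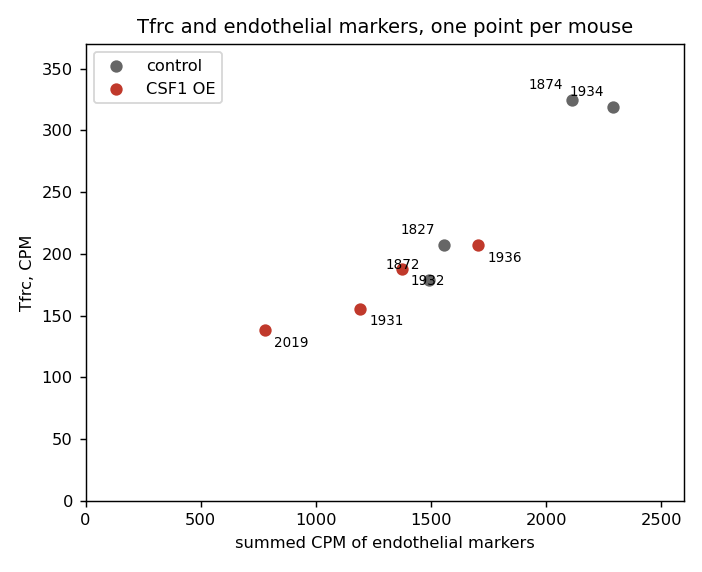
*Tfrc* in CPM against the summed CPM of 10 endothelial marker genes, 1 point per mouse labelled with its animal number (grey, control, and red, CSF1 OE), both axes from 0. Mouse 2019 has the lowest value of both (138 and 780.5), and control mice 1874 and 1934 have the highest of both.

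Cycling cells also express *Tfrc*. The summed CPM of 8 cell cycle genes, led by *Mki67*, was 269.7 to 625 in control and 679.8 to 888 in CSF1 OE mice. Each of the 8 had a higher mean in CSF1 OE mice, with an unadjusted p under 0.05, and 0 were called. Among all genes tested 10.1% were higher with such a p. The part of cycling cells in the level of *Tfrc* was not tested.

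The export genes *Slc40a1* and *Cp* both had lower means in CSF1 OE mice, and neither passed the test. *Slc40a1* (chr1:45908068-45926523, minus strand) encodes the only known iron exporter of mammalian cells. Control mice had 332, 303, 287 and 316 CPM and CSF1 OE mice 219, 277, 248 and 289 CPM. CSF1 OE mouse 2019 stood just above the lowest control mouse, and the other 3 were below all control mice. The means were 309 ± 19.1 and 259 ± 31.4 CPM (SD, n = 4). The log2 fold change was -0.26, a difference of -16.4% in the means (SE 0.10, edgeR adjusted p = 0.261).

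*Cp* (chr3:19957054-20009145, plus strand) encodes ceruloplasmin, a copper enzyme that oxidises iron as it leaves the cell. Its level was 41.9, 48.6, 76.1 and 52.1 CPM in control mice and 38.4, 33.6, 40.1 and 47.8 CPM in CSF1 OE mice. Control mouse 1874 was the highest, and 3 of the 4 CSF1 OE mice were below all control mice. The means were 54.7 ± 14.9 and 39.97 ± 5.90 CPM (SD, n = 4). The log2 fold change was -0.45 (SE 0.19, edgeR adjusted p = 0.271). With a mouse left out it ran from -0.56 (without control 1827) to -0.25 (without control 1874, SE 0.14, edgeR adjusted p = 0.523).

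Markers of border macrophages, the macrophages of the meninges and perivascular spaces, also had lower means in CSF1 OE mice. Their sum over 10 genes, led by *Stab1*, ran from 2981 to 4109 CPM in control and from 2111 to 3228 CPM in CSF1 OE mice. All 10 had a lower mean in CSF1 OE mice, 7 of them with an unadjusted p under 0.05 and 0 of them called. Among all genes tested 6.44% were lower with such a p. Markers of astrocytes, a cell type that makes ceruloplasmin, led by *Slc1a3*, summed to 389.9 to 724 CPM in control and 327 to 752 CPM in CSF1 OE mice. What these cells add to *Slc40a1* or *Cp* was not tested.

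*Hmox1* (chr8:75093621-75100589, plus strand) encodes haem oxygenase 1, an enzyme that cells induce by haem, oxidants and heat. It varied more than any of the other 8 genes between mice of one genotype. Control mice had 564, 639, 223 and 713 CPM, and CSF1 OE mice 149, 833, 204 and 264 CPM. The highest and the lowest mouse of all 8 were both CSF1 OE mice. The means were 535 ± 217 and 363 ± 317 CPM (SD, n = 4), a log2 fold change of -0.56 (SE 0.55, edgeR adjusted p = 0.643). Without CSF1 OE mouse 1932 the log2 fold change was -1.38 (SE 0.38, unadjusted p = 0.00699, adjusted p = 0.152).

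*Hmox1* moved across mice with the heat shock genes, a list made after their values were seen. The summed CPM of 6 heat shock genes was 14471, 11164, 3656 and 11362 in control mice and 2909, 18855, 3444 and 4424 in CSF1 OE mice. The same 4 mice (control 1827, 1872 and 1934 and CSF1 OE 1932) were the highest 4 in both measures. The most abundant was *Hspa8*, at 2581 to 4707 CPM in control and 2194 to 5326 CPM in CSF1 OE mice. *Hspa1a*, a chaperone that heat stress induces, had 2827, 1933, 155 and 1554 CPM in control mice and 33.8, 3610.2, 207 and 217 CPM in CSF1 OE mice. With a covariate for the heat shock genes, the log2 fold change of *Hmox1* was -0.15 (SE 0.16, edgeR adjusted p = 0.734). The list behind this covariate was made after the values were seen, so this fit is no test of what moved *Hmox1*. The labels give no dissociation times, and why the mice differed in heat shock genes was not tested. The summed CPM of 6 targets of NRF2, the factor of the oxidant response, was 165 to 179 in control and 192 to 251 in CSF1 OE mice, a list that was also made after values were seen. None of the 6 was called and 1 (16.7%) had an unadjusted p under 0.05, beside 16.5% of all genes tested. *Txnrd1*, the most abundant, had 62.7 to 76.1 CPM in control and 70.8 to 132 CPM in CSF1 OE mice, while *Nqo1* had a log2 fold change of -0.43 (SE 0.36).

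**Figure D4:**
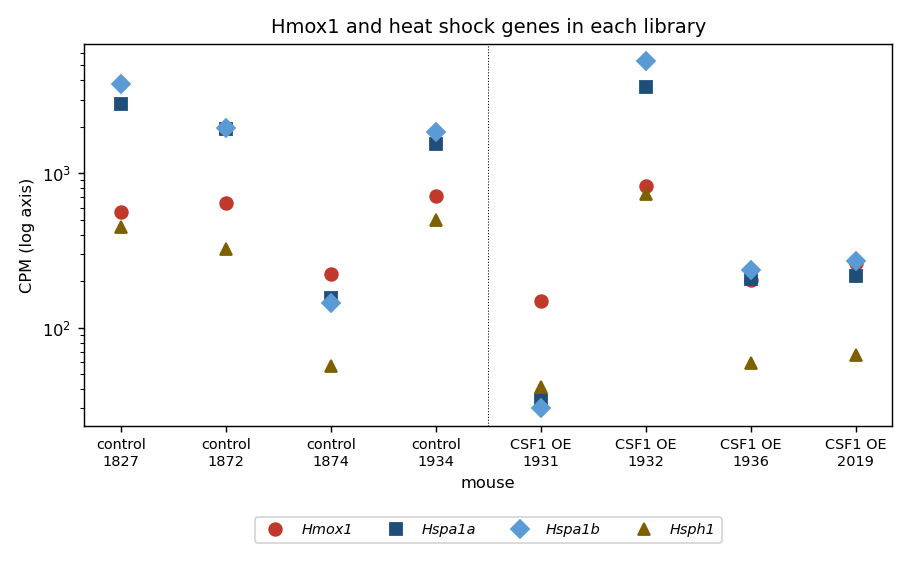
CPM of *Hmox1* and of heat shock genes in each of the 8 mice on a log axis, control mice at left and CSF1 OE mice at right, 1 mark per gene and mouse. *Hspa1a* runs from 33.8 to 3610.2 and *Hmox1* from 149 to 833, and the mice high for one are high for the other.

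*Ireb2* (chr9:54863789-54912530, plus strand) encodes IRP2, which binds the hairpins shown above. Its level was 124, 134, 136 and 128 CPM in control mice and 122, 118, 108 and 147 CPM in CSF1 OE mice. In CSF1 OE mice 3 of 4 were below all control mice and mouse 2019 was above them. The log2 fold change was -0.07 (SE 0.10, edgeR adjusted p = 0.741). Its partner *Aco1* (IRP1), of the wider lists below, had 69.4 to 85.3 CPM in control and 65.8 to 85.9 CPM in CSF1 OE mice.

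The labels give no batch, but the animal numbers fall into a close range from 1931 to 1936 (1 control and 3 CSF1 OE mice) and others (3 control and 1 CSF1 OE mice). *Slc11a1* was above all control mice in both, at 132 to 182 CPM against 65.7 in the close range and 164 against 89.9 to 120.1 CPM in the others. *Tfrc* was below all control mice in both, at 156 to 207 CPM against 319 and 138 against 179 to 325 CPM. *Slc40a1* and *Cp* were below the control mouse in the close range only. With a term for this range in the edgeR fit, 2 of the 9 genes were called, *Slc11a1* at a log2 fold change of 0.91 (adjusted p = 0.0277) and *Tfrc* at -0.79 (adjusted p = 0.0420). Their standard errors in that fit were 0.19 and 0.21. That fit called 1274 of all 13407 genes tested. The only control mouse in the close range, 1934, had the lowest *Slc11a1* and the lowest sum of microglia markers (20278 CPM) of all mice. Its *Tfrc*, 319 CPM, was above that of every CSF1 OE mouse. The only CSF1 OE mouse among the other numbers, 2019, had the highest sum of microglia markers (38643 CPM) and the lowest *Tfrc*. How far the calls of *Slc11a1* and *Tfrc* rest on these mice was not tested.

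The other genes of the iron and haem pathways gave no call either. Lists of 98 symbols, none of them among the 9 genes, held 94 genes of the table, of which 85 were tested. By edgeR 0 of them were called, and 10 (11.8%) had an unadjusted p under 0.05, beside 16.5% of all genes tested. DESeq2, which called 416 of all genes tested, called 1 of them, *Cd163*. Among the 85 genes 42 were higher and 43 lower in CSF1 OE mice, with a median log2 fold change of -0.003. For all genes tested 44.8% were higher. The genotypes did not overlap for 4 of them (4.71%), beside 10.3% of all genes tested.

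Genes of iron uptake and reduction gave 6 higher and 9 lower of 15 tested, with no unadjusted p under 0.05. The most abundant was *Trf*, transferrin itself, with 792 to 1117 CPM in control and 999 to 1322 CPM in CSF1 OE mice (log2 fold change 0.22, SE 0.14, edgeR adjusted p = 0.476). The ends of the list were *Cybrd1*, an iron reductase, at 0.45 (SE 0.54), and *Scara5*, a ferritin receptor, at -0.55 (SE 0.31), both on the log2 scale and under 5 CPM in every mouse.

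All 5 tested genes of the list for iron export, ferroxidases and hepcidin control had lower means in CSF1 OE mice, with no unadjusted p under 0.05. The median log2 fold change, -0.44, was that of *Fxyd7* (SE 0.69), a gene near the floor. It had 0.0756 to 2.25 CPM in control and 0.443 to 1.36 CPM in CSF1 OE mice, and was under 3 counts in control mouse 1874. The smallest difference was that of *App*, at 401 to 509 CPM in control and 307 to 408 CPM in CSF1 OE mice (log2 fold change -0.23, SE 0.12, edgeR adjusted p = 0.378). The largest was that of *Heph* (hephaestin, a ferroxidase), with 4.10, 4.15, 7.33 and 10.5 CPM in control and 4.52, 4.997, 6.75 and 1.42 CPM in CSF1 OE mice, at -0.55 (SE 0.46). *Hamp*, the hepcidin gene, was listed at 0 in 7 of the 8 mice and at 0.0692 CPM in the other, which is under the floor of 3 counts, 0.177 to 0.266 CPM.

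Of 15 genes of iron sensing and ferritin turnover 10 were higher and 5 lower, and 3 had an unadjusted p under 0.05, all lower. Among all genes tested 6.44% were lower with such a p. *Fbxl5*, which targets IRP2 for degradation, had 70.3 to 74.4 CPM in control and 55.0 to 69.9 CPM in CSF1 OE mice (log2 fold change -0.22, SE 0.09, edgeR adjusted p = 0.267). *Ncoa4*, the receptor that takes ferritin to the lysosome, had 242 to 307 CPM in control and 199 to 278 CPM in CSF1 OE mice (log2 fold change -0.31, SE 0.13, edgeR adjusted p = 0.294). The largest difference was that of *Epas1* (HIF-2α, a transcript with an iron-responsive element that is abundant in endothelium), at 144, 179, 256 and 249 CPM in control mice and 132, 135, 170.0 and 77.2 CPM in CSF1 OE mice. Its log2 fold change was -0.68 (SE 0.26, edgeR adjusted p = 0.237). It was lowest in mouse 2019, which had low marker sums of most other cell types but not of neutrophils or border macrophages. Without that mouse it was -0.50 (SE 0.21, edgeR adjusted p = 0.273). At the other end was *Cisd2*, an iron-sulphur protein of the endoplasmic reticulum, with 35.8 to 43.3 CPM in control and 40.8 to 50.7 CPM in CSF1 OE mice (log2 fold change 0.21, SE 0.10, edgeR adjusted p = 0.348). *Bach1*, the repressor of *Hmox1*, had 274 to 474 CPM in control and 370.2 to 389 CPM in CSF1 OE mice.

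Genes of mitochondrial iron and iron-sulphur clusters were higher in CSF1 OE mice in 18 of 25 cases, with a median log2 fold change of 0.11. For all genes tested 44.8% were higher and the median was -0.03. An unadjusted p under 0.05 was found for 3 (12%), all higher, while 10.1% of all genes tested were higher with such a p. *Hspa9*, the mitochondrial chaperone of cluster transfer, had 189, 183, 177 and 190.2 CPM in control mice and 263, 198, 254 and 229 CPM in CSF1 OE mice, without overlap (log2 fold change 0.35, SE 0.10, edgeR adjusted p = 0.142). The largest positive log2 fold change was that of *Fdx1l*, a ferredoxin, with 4.99 to 5.67 CPM in control and 6.39 to 7.70 CPM in CSF1 OE mice (log2 fold change 0.38, SE 0.15, edgeR adjusted p = 0.256). *Fdx1*, the other ferredoxin, stood at the other end with -0.41 (SE 0.21). Also under 0.05 before adjustment was *Nubp1*, at 19.4 to 26.7 CPM in control and 24.2 to 29.2 CPM in CSF1 OE mice. Its log2 fold change was 0.30 (SE 0.13, edgeR adjusted p = 0.289).

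Haem synthesis genes gave 4 higher and 7 lower of 11. *Tmem14c*, which brings a haem precursor into mitochondria, had the largest positive log2 fold change, 0.32 (SE 0.12, edgeR adjusted p = 0.223). *Cpox*, an enzyme of the pathway, did not overlap, at 31.5 to 35.8 CPM in control and 26.8 to 29.4 CPM in CSF1 OE mice (log2 fold change -0.25, SE 0.08, edgeR adjusted p = 0.195). The erythroid enzyme *Alas2* had 11.4, 3.11, 5.14 and 14.1 CPM in control mice and 0.821, 7.79, 3.07 and 0.443 CPM in CSF1 OE mice (log2 fold change -1.46, SE 0.79, edgeR adjusted p = 0.393). With a mouse left out the log2 fold change ran from -2.50 (without CSF1 OE 1932, SE 0.74, edgeR adjusted p = 0.170) to -1.09 (without control 1934, SE 0.82, edgeR adjusted p = 0.575). With the animal number term it was -2.42 (edgeR adjusted p = 0.0742), and with the heat shock covariate -1.20 (edgeR adjusted p = 0.459). *Alas2* is itself a red cell marker. Red cell markers, led by *Hbb-bs*, summed to 252 to 936 CPM in control and 39.2 to 435 CPM in CSF1 OE mice. Their part in *Alas2* was not tested.

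Genes of haem and haemoglobin uptake and breakdown gave 4 higher and 10 lower of 14. An unadjusted p under 0.05 was found for 2 (14.3%), *Cd163* and *Mfsd7c*, both lower, while 6.44% of all genes tested were lower with such a p. *Mfsd7c* had 8.51 to 19.0 CPM in control and 4.43 to 10.4 CPM in CSF1 OE mice (log2 fold change -0.73, SE 0.32, edgeR adjusted p = 0.299). *Cd163*, the scavenger receptor for haemoglobin, had 106, 235, 337 and 281 CPM in control mice and 119, 113, 89.2 and 124 CPM in CSF1 OE mice (log2 fold change -1.11, SE 0.30, edgeR adjusted p = 0.132). Control mouse 1827 lay among the CSF1 OE mice, and without it the adjusted p was 0.0314 at a log2 fold change of -1.35. *Cd163* is itself one of the 10 border macrophage markers given above, of which 0 were called. At the other end was *Slc46a1*, a haem and folate carrier, with a log2 fold change of 0.28 (SE 0.16, edgeR adjusted p = 0.408). *Hmox2*, the constitutive haem oxygenase, had 68.8 to 100.5 CPM in control and 76.7 to 95.7 CPM in CSF1 OE mice.

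**Figure D5:**
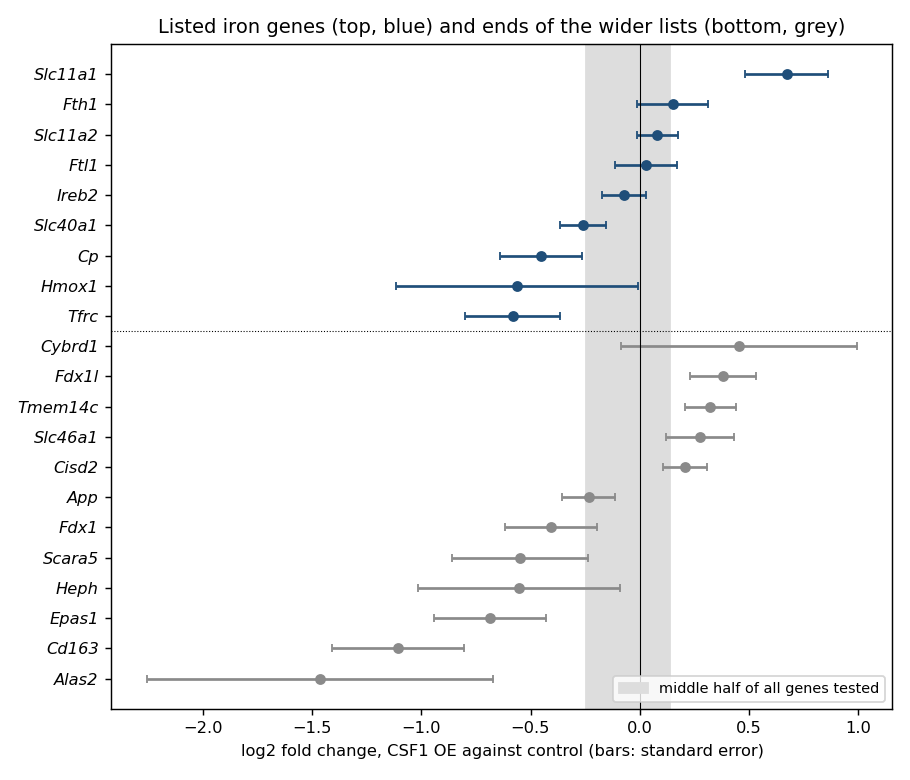
Log2 fold change of CSF1 OE against control mice with its standard error for the 9 iron handling genes (blue, top) and the ends of the 6 wider lists (grey, bottom), beside a band between the quartiles of all genes tested (-0.25 to 0.14). *Slc11a1* at 0.67 is the highest and *Tfrc* at -0.58 the lowest of the 9, and *Alas2* at -1.46 has the widest error bar.

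Whole libraries held 12908195 to 15475488 counts in control and 12053280 to 14356538 in CSF1 OE mice. Microglia markers were abundant in every library. *Csf1* itself had 139 to 364 CPM in control and 167 to 400.1 CPM in CSF1 OE mice, in a pull-down that does not select the cells of the transgene. Of all genes tested 44.8% were higher in CSF1 OE mice. Summed markers of other lists, control against CSF1 OE, were 151 to 329 and 143 to 284 CPM for mural cells (led by *Rgs5*), 146 to 285 and 80.3 to 305 for oligodendrocyte precursor cells (*Gpr17*), 88.7 to 347 and 43.8 to 206 for neurons (*Stmn2*), 3819.5 to 5166 and 1515 to 5975 for choroid plexus (*Ttr*), 39.8 to 93.6 and 13.2 to 199 for neutrophils (*S100a9*), and 582 to 913 and 283 to 607 for monocytes (*Fn1*). The monocyte sum was mostly *Fn1*, at 477 to 842 CPM in control and 213 to 499 CPM in CSF1 OE mice.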

How the data were processed

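The 8 libraries of CD11b+ cells (4 control and 4 CSF1 OE mice) were put in groups by the genotype code in their labels. According to the study's methods the authors aligned the reads with Bowtie and estimated expression with RSEM. The deposited values per gene symbol were taken as RSEM's expected counts without scaling, since many are not whole and their totals differ between libraries. The submitters' processing notes name Bowtie 1.0.0, RSEM 1.2.7 and the build mm10. The annotation and strand setting are not given in the sources used here. RSEM divides a read that fits several genes, and 27.9% to 33.9% of a library's counts above 0 were not whole. A second deposited table, a signal on the scale of counts, holds the authors' expected counts divided by 1 size factor per mouse, and was used in 1 alternative. Table columns left without a sample numbered 0.

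Expected counts were rounded and tested with edgeR 4.0.16 under R 4.3.3 (TMM, filterByExpr, glmQLFit, glmQLFTest), two-sided, with Benjamini-Hochberg adjustment over all genes tested. The standard error is the log2 fold change divided by the root of the F statistic. The study's fold thresholds were kept, and its EBSeq was not run. Sums and ratios were compared by exact permutation over all 70 assignments of the mice, where the smallest p is 0.0286. The common biological coefficient of variation was 0.228. A floor of 3 counts was 0.177 to 0.266 CPM and covers counting error only. No library was a copy of another, with a chi-square per gene of 14.5 to 86.3 over 28 pairs.

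The 9 genes, the wider lists and the tests were chosen with earlier results of these data known. Named are the 9 genes, the 2 ends of each wider list by log2 fold change of the tested genes (in the export list, where all were lower, the smallest fall stands for the rise), called genes, and the most abundant gene of each marker list, apart from 1 list that is not reported here. Other genes, among them those of the wider lists with a low unadjusted p, *Trf*, *Aco1*, *Bach1*, *Hamp*, *Hmox2*, *Nqo1*, *Hspa1a*, *Cldn5* and *Csf1*, were chosen after their values were seen, as were the heat shock and NRF2 target lists and the heat shock covariate. Of the 98 symbols of the wider lists 97 were found, 6 of them by another symbol of the same gene.

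Alternatives were DESeq2 1.42.0, upper-quartile factors, a robust prior, no filter, a minimum of 10 counts in each library, the trend method of limma 3.58.1 run on log2(normalized value + 1), a term for animal numbers 1931 to 1936, an adjusted p threshold of 0.01, no fold threshold and each mouse left out. Tested on simulated data for this comparison, where 198 of 13331 genes changed 2-fold, edgeR recovered 62.1% with 3.91% false calls, DESeq2 75.8% with 20.2% and limma 62.1% with 3.15%.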

Additional observations from a re-analysis of the deposited data

Results flagged for a closer look

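In groups of 4 mice, a mouse whose gap to the nearest other, as a share of the group's range, exceeded Dixon's critical value was singled out. Of 46 groups of values examined 3 had such a mouse, and chance alone gives about 1 in 20. *Fth1* in CSF1 OE mouse 2019 was 690.0 CPM, while the other 3 CSF1 OE mice had 987 to 1024 CPM. *Hmox1* in CSF1 OE mouse 1932 was 833 CPM, while the other 3 had 149 to 264 CPM. The ratio of *Fth1* to *Ftl1* in control mouse 1934 was 0.347, while the other 3 control mice had 0.248 to 0.259.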

How the results depend on the processing

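Of 144 recomputed log2 fold changes of the 9 genes, 136 kept their direction and their side of the threshold, 5 changed sign and 3 became calls. Of 190 for the 12 named genes of the wider lists, 185 kept both, 1 changed sign and 4 became calls. The called genes, 59 in the report (52 higher, 7 lower), numbered 416 with DESeq2 (259 higher, 157 lower), 19 with upper-quartile factors (16 and 3), 105 with limma (88 and 17), 1274 with the term for animal numbers (303 and 971), 3 at an adjusted p of 0.01 (2 and 1), 4 with the heat shock covariate added after seeing the data (3 and 1) and from 3 (without control 1872 or 1874) to 164 (without control 1827) when a mouse was left out. Without control 1934 the count was 10, and without CSF1 OE 1931, 1932 or 1936 it was 4, 18 and 8. Of the 9 genes 1 was called with DESeq2 (*Slc11a1*), 2 with the animal number term (*Slc11a1* and *Tfrc*) and 0 whichever mouse was left out. In the wider lists 1 was called with DESeq2 (*Cd163*), 4 with the animal number term (*Epas1*, *Heph*, *Mfsd7c* and *Prnp*), and from 0 to 1 (*Cd163*, without control 1827) with a mouse left out. The animal number term turned the log2 fold change of *Fth1* to -0.076, of *Slc11a2* to -0.0067, of *Ireb2* to 0.014 and of *Cybrd1* to -0.37. That of *Ftl1* ran from -0.039 to 0.13 with a mouse left out, at -0.022 without control 1874 and -0.039 without CSF1 OE 1932, and that of summed ferritin, 0.06 in the report, ran from -0.0043 to 0.14, at -0.0043 and -0.0018 without those mice. The log2 difference in the *Fth1* to *Ftl1* ratio ran from 0.017 to 0.22 with a mouse left out. Adjusted p-values with a mouse left out ran from 0.0949 to 0.338 for *Slc11a1*, from 0.177 to 0.467 for *Tfrc* and from 0.152 to 0.867 for *Hmox1*. The cause of these shifts was not tested. No paired analysis was possible because the genotypes share no replicate number. With 4 mice a genotype, differences of the size seen in *Slc40a1* or *Fth1* could be missed, and a p over the threshold does not show that levels were equal.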
